A study of Mus musculus with 8 samples.

Results

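De novo lipogenesis is the making of fatty acids from sugar carbon, and 10 genes that run it in liver were followed here by name: Srebf1, Mlxipl, Acly, Acaca, Acacb, Fasn, Me1, Elovl6, Scd1 and Thrsp. They are 10 of the 25078 genes in the deposited count table, and all 10 were among the 14438 genes with enough counts to test. Liver RNA was sequenced from 3 het-labelled and 5 wild-type male C57/BL6 mice. The genotype label of the 3 reads hemizygotes for Midn and their titles read Het; per the submitters' design text they carry a global knockout of 1 copy of Midn, the gene of midnolin, which is known to hand unstable nuclear proteins over to the proteasome for breakdown. All 8 mice ate the same Western-style diet, rich in cholesterol, fructose and fat, for 25 weeks, and no chow-fed group was analysed here. Homozygous knockouts mostly died as embryos, per the same text. The study's stated interest is the part that midnolin plays in fatty liver disease, and the question put to these 10 genes is whether their transcripts differed with the genotype label and how that stands against hepatocyte content.

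In hepatocytes, citrate that leaves the mitochondria is split into acetyl-CoA, carboxylated to malonyl-CoA, built into palmitate, and then elongated and desaturated. Transcription of this chain is driven by SREBP1, which answers to insulin, and by ChREBP, which answers to sugar. The pathway is known to be active in fatty liver and to be strongly fed by dietary fructose.

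Totals of counts assigned to genes ran from 17508221 to 24916239 per liver, and the lowest count of any of the 10 genes in any liver was 842, for Acacb. Midn itself had 60.4, 39.1 and 51.7 CPM (counts scaled to a common library total) in het-labelled livers 1 to 3, against 68.7, 39.8, 71.5, 41.7 and 29.3 CPM in wild-type livers 1 to 5, so its level did not separate the labels (log2 fold change 0.00, edgeR adjusted p = 0.994). Where the deletion lies in Midn is not stated in the labels, so its count is no firm check of them. Each direction below is therefore that of the livers labelled Het. Rpph1, an RNA without a poly(A) tail, took 0.229 to 0.399% of counts in het-labelled livers, 0.304 to 0.331% in wild-type livers 1 and 3 and 0.673 to 1.06% in wild-type livers 2, 4 and 5, and values of the 10 genes against each of these wild-type subsets are given after the results over all livers. Every one of the 20 hepatocyte markers was detected in every liver.

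The 10 genes are introduced by the starts of some of them, because these show what a count per gene adds up. Of the 10, 9 matched the RefSeq promoter table for mouse build GRCm38.p6, with 13 windows of 300 bases that reach from 250 bases before to 50 bases after an annotated start. Mlxipl has a pair of windows, 1 for each annotated start, and Srebf1 has 3, so that the deposited counts per gene sum over transcripts from different starts and cannot tell SREBP1a from SREBP1c or the ChREBP isoforms apart. The windows below run 5′ to 3′ on the gene's own strand. Capitals mark matches, on either strand, to 4 short motifs: the sterol regulatory element core TCACNCCAC, the E-box CACGTG, the CCAAT box CCAAT and the GC box GGGCGG. In the Fasn window a pair of CCAAT matches on opposite strands overlap. Mlxipl is shown for both starts, Srebf1 for the most downstream one, and Fasn and Thrsp as the synthase and the most variable gene of the set.
Mlxipl start 1, chr5:135089640-135089939, plus strand: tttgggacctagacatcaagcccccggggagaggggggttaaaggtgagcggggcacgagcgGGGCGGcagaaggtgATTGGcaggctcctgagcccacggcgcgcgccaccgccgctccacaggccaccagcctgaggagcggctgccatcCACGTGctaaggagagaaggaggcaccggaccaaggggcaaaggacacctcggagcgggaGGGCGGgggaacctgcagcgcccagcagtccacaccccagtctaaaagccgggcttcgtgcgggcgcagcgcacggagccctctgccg
Mlxipl start 2, chr5:135106641-135106940, plus strand: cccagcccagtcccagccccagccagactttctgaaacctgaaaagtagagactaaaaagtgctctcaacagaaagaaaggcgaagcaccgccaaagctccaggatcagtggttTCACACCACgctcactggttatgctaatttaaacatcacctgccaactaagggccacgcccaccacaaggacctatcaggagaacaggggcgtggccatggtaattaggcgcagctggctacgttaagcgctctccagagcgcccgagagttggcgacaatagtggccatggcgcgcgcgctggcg
Srebf1 start 1, chr11:60210422-60210721, minus strand: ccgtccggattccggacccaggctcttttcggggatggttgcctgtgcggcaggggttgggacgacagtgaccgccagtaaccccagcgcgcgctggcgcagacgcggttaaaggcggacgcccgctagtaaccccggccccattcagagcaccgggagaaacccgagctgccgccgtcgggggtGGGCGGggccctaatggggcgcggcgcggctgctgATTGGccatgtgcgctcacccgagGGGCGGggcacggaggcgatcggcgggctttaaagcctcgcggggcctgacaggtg
Fasn, chr11:120824498-120824797, minus strand: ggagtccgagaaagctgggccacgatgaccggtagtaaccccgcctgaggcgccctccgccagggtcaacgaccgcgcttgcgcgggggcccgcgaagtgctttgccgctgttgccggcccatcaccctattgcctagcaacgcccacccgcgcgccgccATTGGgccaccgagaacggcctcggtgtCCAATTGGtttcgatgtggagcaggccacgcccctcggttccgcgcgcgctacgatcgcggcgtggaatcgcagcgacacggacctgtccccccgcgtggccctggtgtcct
Thrsp, chr7:97417501-97417800, minus strand: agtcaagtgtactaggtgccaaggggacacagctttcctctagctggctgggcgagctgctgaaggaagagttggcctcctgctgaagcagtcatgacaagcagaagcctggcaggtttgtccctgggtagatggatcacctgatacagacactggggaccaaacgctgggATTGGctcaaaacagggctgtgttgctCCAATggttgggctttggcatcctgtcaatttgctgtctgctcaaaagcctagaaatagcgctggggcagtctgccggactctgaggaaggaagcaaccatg

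Mlxipl was the only gene of the 9 with a match to the E-box letters CACGTG in a window, and the only one with a match to TCACNCCAC. Variants of these letters were not searched, so a gene without a match may still hold such an element. The E-box lay at base −98 of its first window. It was in 1 of the 13 windows of the 9 genes, near the share of all 32851 windows (7.15%). The sterol regulatory element core lay at base −136 of its second window, as TCACACCAC. It was also in 1 of the 13 windows, and 1.24% of all windows held one. CCAAT boxes were found for 7 of the 9 genes (Srebf1, Mlxipl, Acly, Acacb, Fasn, Me1 and Thrsp). They were in 8 of the 13 windows of the 9 genes, against 37.4% of all windows. GC boxes were found for 4 genes (Srebf1, Mlxipl, Acly and Me1), in 5 of the 13 windows, against 35.7% of all windows. A strict form of the carbohydrate response element, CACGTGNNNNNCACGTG, was in 0 of all 32851 windows. This search therefore could not tell the 9 genes from any others. A match describes letters in these windows only, and several genes had more than 1 window.

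None of the 10 lipogenesis genes differed between the genotypes at the threshold used. With edgeR's quasi-likelihood test and Benjamini-Hochberg adjustment over all genes, 0 of the 10 had an adjusted p under 0.05, where 0 of 14438 genes (0%) did. DESeq2 also called 0 of the 10, where it called 166 of 15070 genes (1.1%). At an unadjusted p under 0.05 in edgeR, 1 of the 10 was higher in het-labelled livers (Mlxipl) and 0 were lower, against 10.3% and 5.43% of all genes tested. For 0 of the 10 did the het-labelled livers lie apart from the wild-type livers, while 7.54% of all genes had every het-labelled liver above every wild-type one and 2.32% below. The median log2 fold change, het-labelled over wild type, was 0.23 for the 10 genes and 0.00 for all genes tested, with 8 of the 10 above 0. In bulk RNA, fewer cells of a type and less RNA per cell cannot be told apart. Levels in the next paragraphs are CPM scaled by TMM, a correction for library composition, and each fold is on the log2 scale with its standard error (SE) from edgeR.

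**Figure D1:**
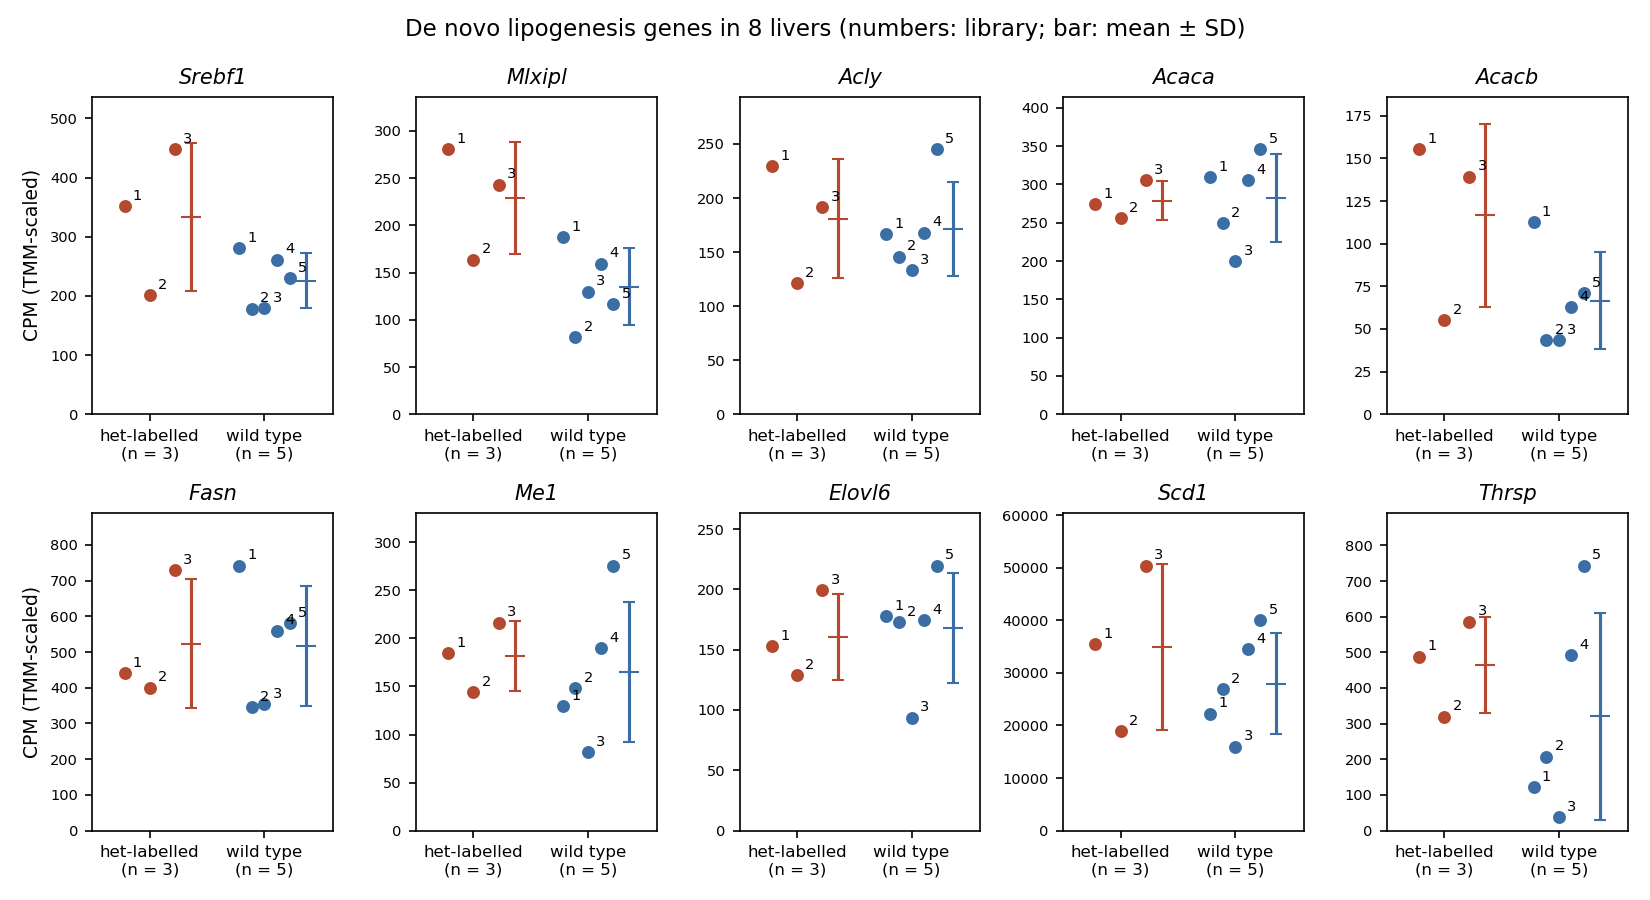
CPM (TMM-scaled, vertical axes from 0) of each of the 10 lipogenesis genes in 3 het-labelled (left, red) and 5 wild-type (right, blue) livers, with the liver's number beside each point and the mean ± SD beside each group. For each of the 10 genes the points of the groups overlap, and Thrsp spans 38.5 to 743 CPM within wild type.

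The transcription factor genes Srebf1 and Mlxipl stood highest in het-labelled livers 1 and 3. Srebf1 (chromosome 11, 60199084 to 60222581, minus strand, GRCm38.p6), which encodes SREBP1, had 352, 201 and 448 CPM in het-labelled livers 1, 2 and 3, against 280.3, 179, 179.8, 261 and 230.0 CPM in wild-type livers 1 to 5. Het-labelled livers 1 and 3 thus lay above all 5 wild-type livers on the TMM scale, while het-labelled liver 2 lay among them. These livers, 1 and 3, had the largest count totals (24916239 and 24645260) and the lowest TMM factors (0.871 and 0.852). Per count total without TMM, het-labelled liver 1 lay below wild-type liver 1 for Srebf1. Het-labelled liver 3 then lay below wild-type liver 1 for Mlxipl and Acacb, described next. The means were 333 ± 124 CPM in het-labelled livers (SD, n = 3) and 226 ± 46.3 CPM in wild-type livers (SD, n = 5). Their log2 fold change was 0.56 (95% interval −0.06 to 1.18, SE 0.27, edgeR adjusted p = 0.343).

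Mlxipl (chromosome 5, 135089890 to 135138201, plus strand), which encodes ChREBP, had 280.4, 164 and 243 CPM in het-labelled livers 1, 2 and 3, against 188, 82.1, 130.0, 159 and 116 CPM in wild-type livers 1 to 5. The pattern of livers was as for Srebf1: het-labelled livers 1 and 3 lay above every wild-type liver, and het-labelled liver 2 lay below wild-type liver 1 only. The log2 fold change was 0.76 (SE 0.28, 95% interval 0.14 to 1.39), which missed the threshold over all genes (edgeR adjusted p = 0.273, unadjusted p = 0.0223). A two-sided exact permutation test of its CPM gave p = 0.0714, where 0.0357 is the smallest possible. That p was the lowest of any lipogenesis gene and was not adjusted, and the same test gave 0.143 for Srebf1 and for Acacb. Of all 14438 genes, Mlxipl ranked 1179 by edgeR p.

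The gene pair for the carboxylation step had unlike fold changes, and the difference between them was not tested. Acaca and Acacb encode acetyl-CoA carboxylase 1, the cytosolic form that makes malonyl-CoA for synthesis, and acetyl-CoA carboxylase 2, the form at the mitochondrion whose malonyl-CoA restrains fatty acid entry. Acaca (chromosome 11, 84195438 to 84401651, plus strand) had 275, 256 and 306 CPM in het-labelled livers 1, 2 and 3, against 309, 249.7, 199.7, 306 and 346 CPM in wild-type livers 1 to 5. All 3 het-labelled livers lay inside the wild-type range, and the groups differed by −0.02 on the log2 scale (SE 0.20, 95% interval −0.47 to 0.44, edgeR adjusted p = 0.971). Acaca also varied least of the 10, with 1.73-fold between its highest and lowest liver, where the median over all genes tested was 2.10-fold.

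Acacb (chromosome 5, 114165518 to 114250758, plus strand) had 155, 55.4 and 139 CPM in het-labelled livers 1, 2 and 3, against 113, 43.4, 43.4, 62.8 and 71.2 CPM in wild-type livers 1 to 5. Again het-labelled livers 1 and 3 lay above all wild-type livers and het-labelled liver 2 lay among them. The log2 fold change was 0.81 (SE 0.39, 95% interval −0.08 to 1.70, edgeR adjusted p = 0.344), the highest of the 10, and its interval includes 0. In the authors' RPKM values, which are per exon length, Acacb stood at 0.602, 0.230 and 0.485 times the level of Acaca in het-labelled livers 1, 2 and 3, against 0.388, 0.185, 0.231, 0.219 and 0.219 times in wild-type livers 1 to 5. Het-labelled livers 1 and 3 had the highest ratios of the 8 livers, and het-labelled liver 2 lay among wild-type livers 1 to 5. This ratio was chosen after the counts were seen and was not tested.

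Genes that feed carbon and reducing power to the synthase lay inside or near the wild-type range. Acly (chromosome 11, 100476352 to 100528000, minus strand), which encodes ATP citrate lyase, the source of cytosolic acetyl-CoA, had 229.5, 121 and 192 CPM in het-labelled livers 1, 2 and 3, against 166, 146, 133, 168 and 245 CPM in wild-type livers 1 to 5. Het-labelled liver 2 was the lowest of the 8 and wild-type liver 5 the highest, and the means differed by less than either SD (181 ± 55.1 CPM in het-labelled and 172 ± 43.5 CPM in wild-type livers, n = 3 and n = 5; log2 fold change 0.07, SE 0.26, edgeR adjusted p = 0.888). Me1 (chromosome 9, 86581363 to 86695914, minus strand), which encodes the cytosolic malic enzyme that yields NADPH, had 185, 144 and 216 CPM in het-labelled livers 1, 2 and 3, against 129, 148, 81.8, 189.8 and 276 CPM in wild-type livers 1 to 5. Its het-labelled livers all fell inside the wild-type range, whose ends were wild-type livers 3 and 5 (log2 fold change 0.14, SE 0.35, edgeR adjusted p = 0.839).

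Fasn, the fatty acid synthase gene that gives the pathway its central step, had almost equal means in the groups. The gene (chromosome 11, 120805958 to 120824547, minus strand) had 442, 400.0 and 729.6 CPM in het-labelled livers 1, 2 and 3, against 742, 345, 353, 559.7 and 582 CPM in wild-type livers 1 to 5. The highest livers of the groups were close, and the het-labelled values lay inside the wild-type range. The means were 524 ± 179 CPM in het-labelled livers (SD, n = 3) and 516 ± 168 CPM in wild-type livers (SD, n = 5). Their log2 fold change was 0.02 (95% interval −0.69 to 0.74, SE 0.32, edgeR adjusted p = 0.975). That interval runs from 0.618-fold to 1.66-fold, and these livers cannot exclude a change within it.

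The genes that finish the fatty acid, Elovl6 and Scd1, overlapped between the groups as well. Elovl6 (chromosome 3, 129532386 to 129638493, plus strand), the elongase that turns palmitate into stearate, had 153, 129 and 199 CPM in het-labelled livers 1, 2 and 3, against 178, 173, 93.8, 175 and 219.7 CPM in wild-type livers 1 to 5. The het-labelled values lay inside the wild-type range (log2 fold change −0.06, SE 0.27, edgeR adjusted p = 0.907). Scd1 (chromosome 19, 44394450 to 44407709, minus strand), the desaturase that makes oleate and palmitoleate, alone took 2.002 to 4.29% of all counts in het-labelled livers and 2.03 to 3.57% in wild-type livers. It had 35499, 18859 and 50427 CPM in het-labelled livers 1, 2 and 3, against 22244, 26963, 15963, 34562.5 and 40117 CPM in wild-type livers 1 to 5. Het-labelled liver 3 was the highest of the 8, but het-labelled liver 2 lay below all wild-type livers except wild-type liver 3 (log2 fold change 0.32, SE 0.40, 95% interval −0.58 to 1.22, edgeR adjusted p = 0.671). Scd1 has related genes, and how any reads shared with them were assigned is not given in the sources. Scd2 had 154 ± 36.7 CPM in het-labelled and 128 ± 24.3 CPM in wild-type livers (SD, n = 3 and n = 5), a small part of the Scd1 level.

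Thrsp, known as Spot 14, is a small protein that promotes lipogenesis and whose gene answers to thyroid hormone and sugar, and it was the most variable of the 10. The gene (chromosome 7, 97412933 to 97417550, minus strand) had 488, 319.7 and 587 CPM in het-labelled livers 1, 2 and 3, against 122, 207, 38.5, 491 and 743 CPM in wild-type livers 1 to 5. All 3 het-labelled livers lay between the extremes of wild type, where wild-type liver 5 stood 19.3-fold above wild-type liver 3. A wider range over the 8 livers was seen in 2.09% of all genes tested. The log2 fold change was 0.54 (SE 0.76, 95% interval −1.17 to 2.25, edgeR adjusted p = 0.711). Its value depended on which wild-type livers were used, as it was 2.47 (95% interval 1.16 to 3.78, edgeR adjusted p = 0.0706) against wild-type livers 1 and 3 alone and −0.10 (95% interval −1.10 to 0.91) against wild-type livers 2, 4 and 5 alone. The wild-type livers were split by their Rpph1 share, and its part in the result was not tested.

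Per exon length, in the authors' RPKM values, the levels of the 10 genes were far apart at the ends and close in the middle. The median over the 8 livers was 6110.4 RPKM for Scd1, 352 for Thrsp, 53.1 for Srebf1, 48.8 for Fasn, 44.2 for Me1, 42.3 for Mlxipl, 37.3 for Acly, 30.8 for Acaca, 28.02 for Elovl6 and 7.72 for Acacb. Scd1 stood above Thrsp, and Elovl6 above Acacb, in 8 of 8 livers. Thrsp stood above Srebf1 in 7 of 8. Between Srebf1 and Elovl6 the order changed from liver to liver: Srebf1 was above Fasn in 6 livers, Fasn above Me1 in 5, Me1 above Mlxipl in 3 and Mlxipl above Acly in 6, while Acly was above Acaca and Acaca above Elovl6 in 7 each. These neighbours were therefore not separated by their spread.

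Much of the variation of the 10 genes ran between livers within a genotype. Wild-type liver 3 was the lowest of the 8 for 6 genes and wild-type liver 2 for 3 (Srebf1, Mlxipl and Fasn), while het-labelled liver 2 was the lowest for Acly. Wild-type liver 5 was the highest for 5 genes (Acly, Acaca, Me1, Elovl6 and Thrsp). Het-labelled liver 3 was the highest for Srebf1 and Scd1, het-labelled liver 1 for Mlxipl and Acacb, and wild-type liver 1 for Fasn. A score of the set, the mean over the 10 genes of log2 CPM relative to the 8 livers, was 0.38, −0.25 and 0.58 in het-labelled livers 1, 2 and 3, against −0.01, −0.37, −0.84, 0.15 and 0.35 in wild-type livers 1 to 5. The score of het-labelled liver 2 lay between those of wild-type livers 2 and 1, and het-labelled livers 1 and 3 had the highest scores. The 5 other genes tested whose log2 CPM ran most like this score over the 8 livers were the exosome subunit gene Exosc5 (Pearson r 0.990), the phosphatidate phosphatase gene Lpin2 (0.974), the acyl-CoA synthetase gene Acsl5 (0.972), the mitochondrial protease gene Parl (0.971) and Itprid2 (0.969). They were picked as the highest of all genes, and the livers share library composition and depth, so r is a description.

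**Figure D2:**
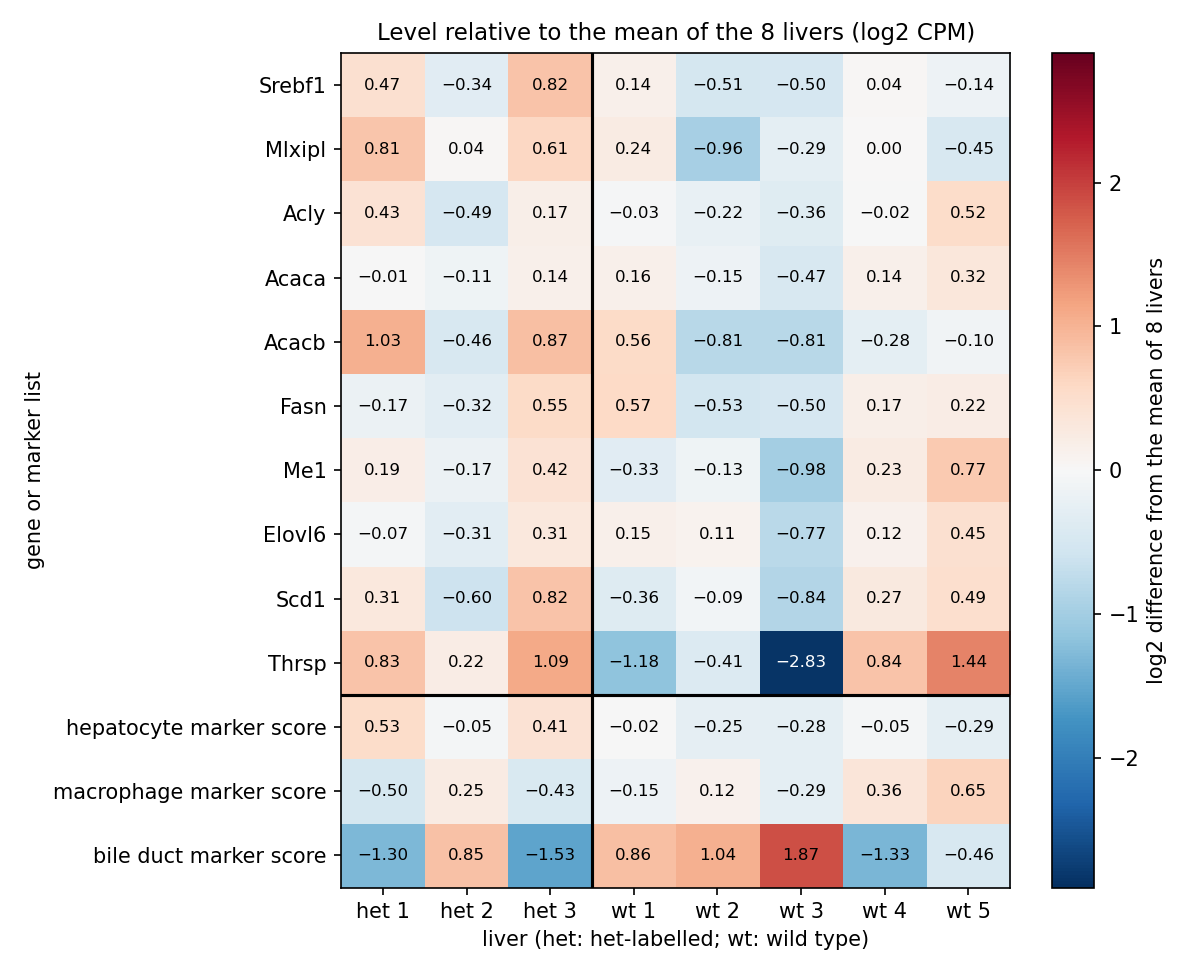
Log2 CPM of each lipogenesis gene minus its mean over the 8 livers (colour and printed number), with the scores of hepatocyte, macrophage and bile duct markers in the rows under the line; columns are the 3 het-labelled livers (left of the line) and the 5 wild-type livers. Wild-type liver 3 is below its mean for 10 of 10 genes, down to −2.83 for Thrsp, and het-labelled liver 3 is above it for 10 of 10.

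On the TMM scale, het-labelled livers 1 and 3, which stood highest for Srebf1, Mlxipl and Acacb, also stood highest for hepatocyte markers. Their low TMM factors (0.871 and 0.852) raise genes and markers alike. Without TMM, the marker level relative to the mean of the 8 livers was 1.26 and 1.13 in these livers, against 1.12 in wild-type liver 1. Hepatocyte markers had a median log2 fold change of 0.54, with 19 of 20 above 0, and 7 were higher before adjustment (p under 0.05) while 0 were lower, against 10.3% and 5.43% of all genes. After adjustment edgeR called 0 of the 20, and DESeq2 called 2, Apoh (adjusted p = 0.0362) and Ttr (adjusted p = 0.0496), both higher. Their score was 0.53, −0.05 and 0.41 in het-labelled livers 1, 2 and 3, against −0.02, −0.25, −0.28, −0.05 and −0.29 in wild-type livers 1 to 5. Het-labelled liver 2 lay inside the wild-type range and the others above it, a difference of 0.47 (two-sided exact permutation p = 0.0714, smallest possible 0.0357). The summed level of the markers ran from 69650 to 110553 CPM in het-labelled and from 61173 to 72443 CPM in wild-type livers. Macrophage markers had a median of −0.50, with 11 of 12 below 0, and summed to 735 to 1582 CPM in het-labelled and 1121 to 2366 CPM in wild-type livers. Bile duct markers had a median of −1.01, with 6 of 6 below 0, and summed to 146 to 737 CPM in het-labelled and 404 to 873 CPM in wild-type livers. Medians were −0.76 for T and NK cell, −0.65 for B cell, −0.39 for neutrophil, −0.37 for stellate cell and 0.31 for endothelium markers. With library size alone, medians were 0.32 for hepatocyte, 0.098 for endothelium, −0.61 for macrophage and −1.20 for bile duct markers. Het-labelled livers 1 and 3 also stood highest for endothelium markers (scores 0.33 and 0.37, against −0.30 to 0.02 in wild-type livers). They stood lowest for macrophage markers (−0.50 and −0.43, against −0.29 to 0.65 in wild-type livers). Adipocytes also run lipogenesis, and their 6 markers did not move alike. Lep was at 0 in all 8 livers, and Adipoq, Plin1 and Retn had 0 to 0.133 CPM in every liver. Adrb3 had 5.33 to 9.49 CPM in het-labelled and 5.72 to 8.79 CPM in wild-type livers. Cfd, the gene of adipsin, had 39.6, 1.94 and 20.1 CPM in het-labelled livers 1, 2 and 3, against 0.577, 2.11, 0.374, 3.40 and 1.75 CPM in wild-type livers 1 to 5 (log2 fold change 3.67, SE 0.87, edgeR adjusted p = 0.259, DESeq2 adjusted p = 0.0366). It was thus high in het-labelled livers 1 and 3, which stood highest for Srebf1, Mlxipl and Acacb. The summed level of the 6 markers ran from 7.26 to 49.2 CPM in het-labelled and from 7.40 to 10.2 CPM in wild-type livers, and their part in the results was not tested.

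**Figure D3:**
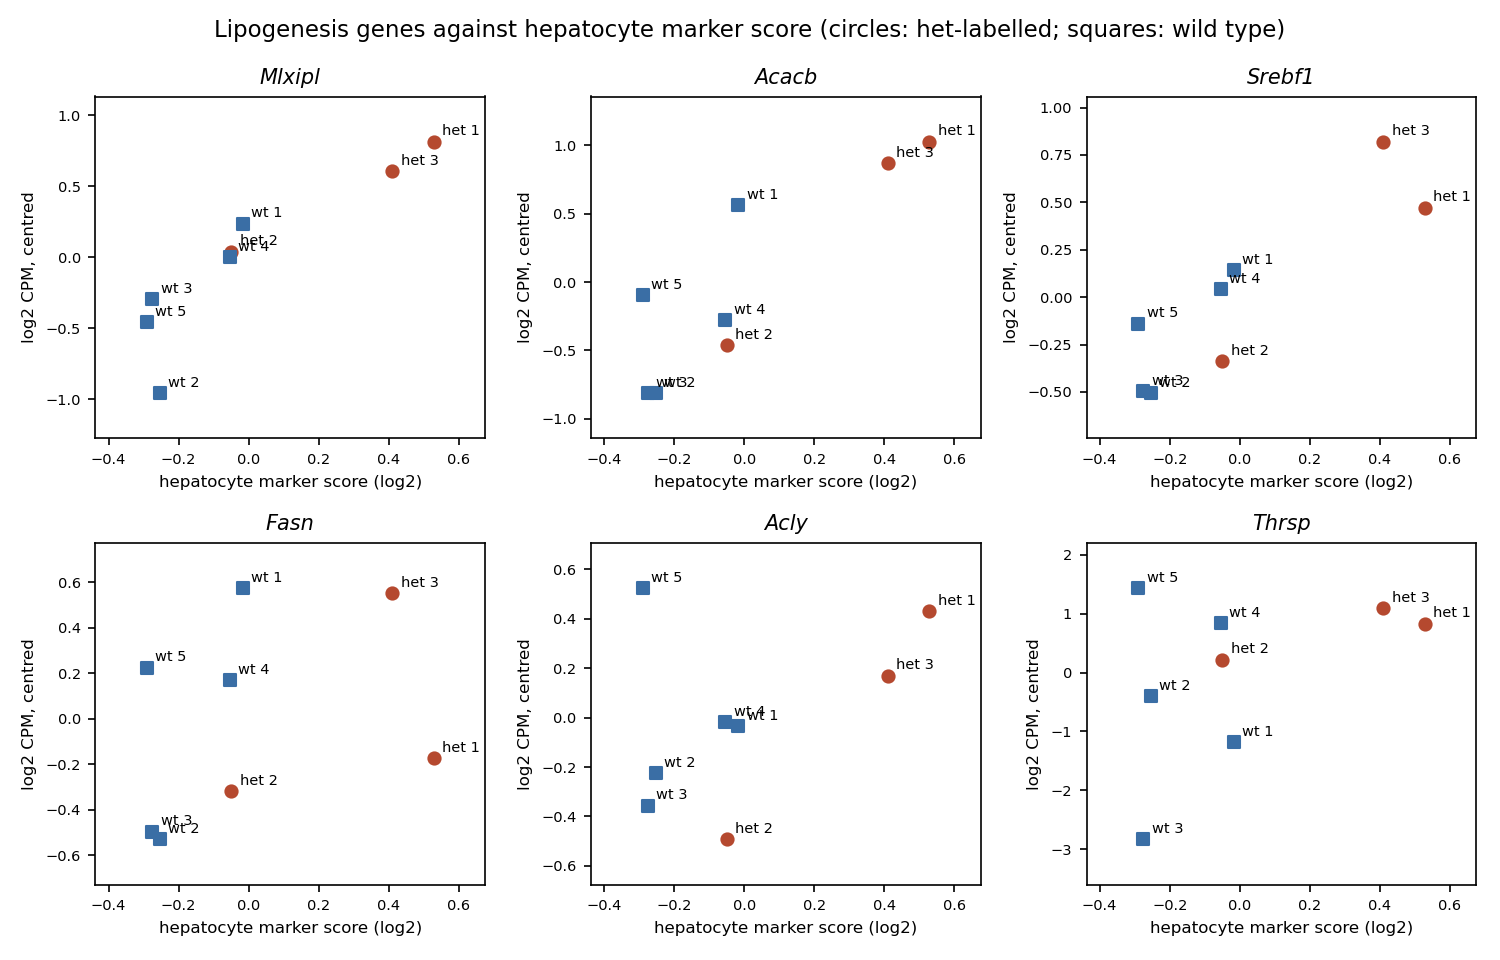
Centred log2 CPM (vertical) of 6 lipogenesis genes against the hepatocyte marker score (horizontal, log2) in 3 het-labelled livers (circles) and 5 wild-type livers (squares). Both axes are TMM-scaled. Mlxipl, Acacb and Srebf1 stand highest in the livers with scores of 0.53 and 0.41, while for Fasn, Acly and Thrsp wild-type liver 5, at −0.29, lies above its gene's mean.

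Set against hepatocyte transcript, 6 of the 10 genes lay below 0. For this the counts were scaled so that the mean log2 level of the 20 hepatocyte markers was equal in all livers, and a fold then reads per unit of hepatocyte transcript. The median of the 10 genes was −0.29, against −0.46 for all genes tested, and 4 of the 10 were higher and 6 lower. No gene of the 10 passed (smallest edgeR adjusted p = 0.202, for Acaca), where 0 of 14438 genes (0%) did. Without adjustment, 0 of the 10 genes had p under 0.05 in either direction, against 0.727% of all genes higher and 24.4% lower. The median of the 10 thus stood 0.17 above that of all genes, compared with 0.23 on the TMM scale. With the hepatocyte score as a covariate in edgeR instead, 1 of the 10 was above 0 and 9 below, with a median of −0.35 against 0.01 for all genes, and 0 of the 10 had an unadjusted p under 0.05. In that fit 0 of 14438 genes (0%) passed adjustment, and 0.291% were higher and 0.381% lower without adjustment. The set's direction relative to all genes therefore depended on how hepatocyte content was taken into account.

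The order of the genes by fold stayed the same on this scale, except that Acly and Fasn changed places. A nearly constant order follows from the scaling itself, which changes 1 factor per liver for all genes alike. Mlxipl had 194, 169.5 and 183 hepatocyte-scaled CPM in het-labelled livers 1, 2 and 3, against 189.9, 97.8, 157, 166 and 142 in wild-type livers 1 to 5, and the log2 fold change was 0.28 (95% interval −0.21 to 0.76). Het-labelled liver 1 lay above all wild-type livers, and het-labelled livers 2 and 3 lay between wild-type liver 1 and the other 4. Srebf1 (0.05), Acacb (0.28) and Thrsp (0.01) also stood above 0, while Scd1 was at −0.22, Me1 at −0.36, Fasn at −0.45, Acaca at −0.48 and Elovl6 at −0.55. Acly had 159, 125 and 144 hepatocyte-scaled CPM in het-labelled livers 1, 2 and 3, against 168, 174, 161, 174 and 299 in wild-type livers 1 to 5. It was the only gene of the 10 in which the groups did not overlap on this scale, with every het-labelled liver below every wild-type one (log2 fold change −0.45, SE 0.24, edgeR adjusted p = 0.231). Of all genes, 9.17% had every het-labelled liver below and 0.9% above on this scale, so 1 of 10 is close to the share of all genes.

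Scaling to hepatocyte transcript narrowed the spread of some of the genes and widened that of others. The ratio of the highest to the lowest liver was 1.62 on the hepatocyte scale, against 2.51 on the TMM scale, for Srebf1. It was 1.99 against 3.42 for Mlxipl, 2.20 against 3.58 for Acacb and 2.54 against 3.16 for Scd1. For the other 6 genes it was wider on the hepatocyte scale, as in Acaca (2.22 against 1.73) and Fasn (2.45 against 2.15), and Thrsp stayed at 19.5 against 19.3. A narrower range was thus seen in 4 of 10 lipogenesis genes, against 27.4% of 14365 genes with counts in all livers and 17 of the 20 hepatocyte markers that set the scale. This comparison was chosen after the counts were seen and was not tested.

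**Figure D4:**
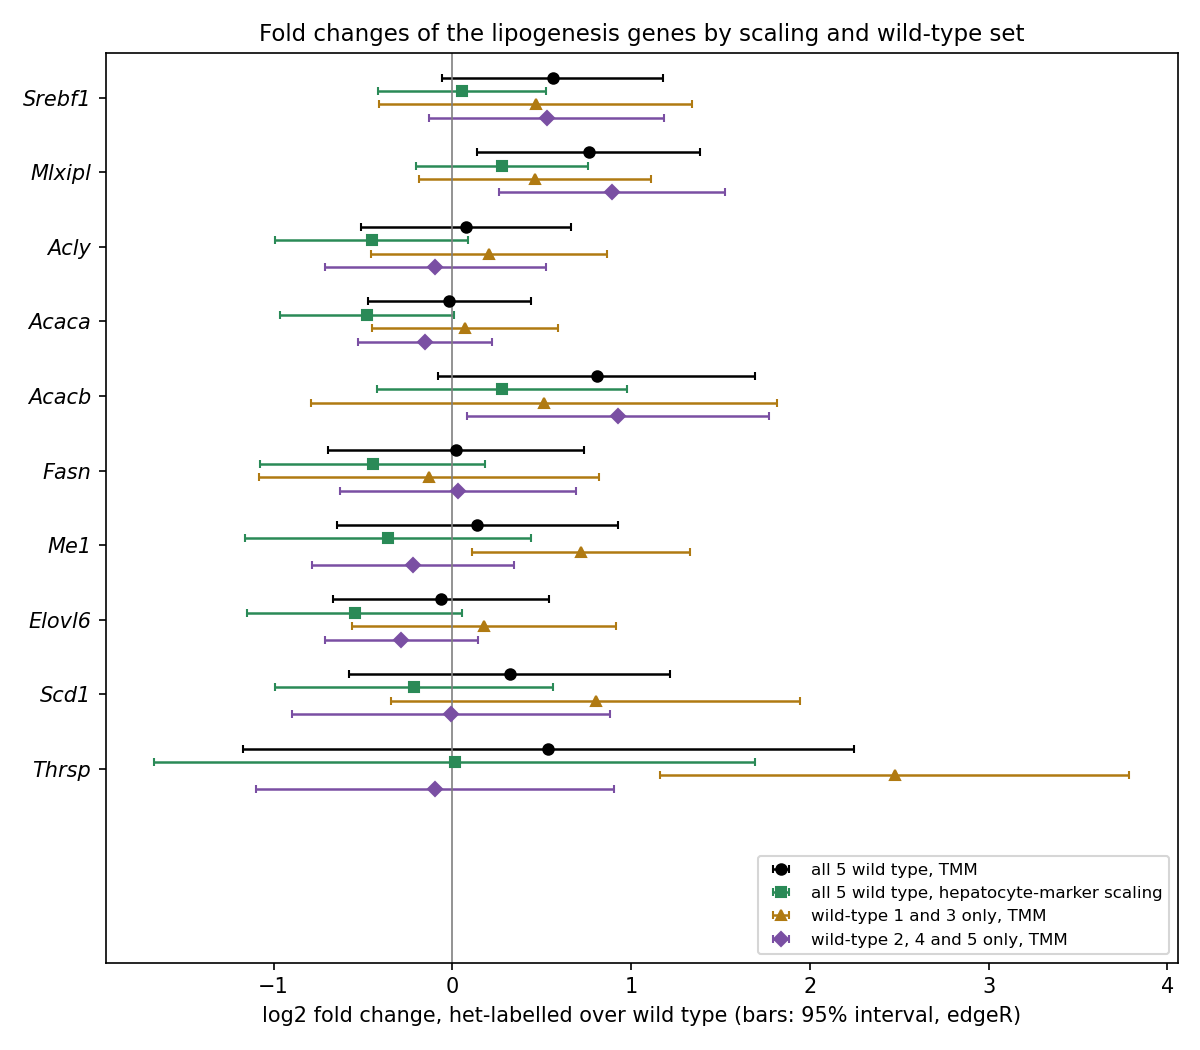
Log2 fold change, het-labelled over wild type, of the 10 lipogenesis genes (points) with 95% intervals from edgeR (bars), for all 5 wild-type livers with TMM or hepatocyte-marker scaling and for each subset of wild-type livers with TMM scaling. Thrsp lies at 0.54 with all wild-type livers, 2.47 with livers 1 and 3 and −0.10 with livers 2, 4 and 5.

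The choice of wild-type livers touched the 10 genes unevenly. Against wild-type livers 1 and 3 alone, 9 of 10 lay above 0 with a median of 0.46, and Me1 and Thrsp had an unadjusted p under 0.05, where 16.7% of genes were higher and 14.9% lower. None of the 10 passed adjustment, where 21 of 14645 genes (0.143%) did. Against wild-type livers 2, 4 and 5 alone, 4 of 10 lay above 0 with a median of −0.05, and Mlxipl (edgeR adjusted p = 0.0554) and Acacb (edgeR adjusted p = 0.106) had an unadjusted p under 0.05, where 18.8% of genes were higher and 18.7% lower. None of the 10 passed adjustment there, although 2632 of 13922 genes (18.9%) did. The Rpph1 share was 0.229 to 0.399% in het-labelled livers and 0.673 to 1.06% in wild-type livers 2, 4 and 5. In this comparison the genotype label and what runs with that share therefore cannot be told apart.

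Against livers 1 and 3 the log2 fold change of Mlxipl was 0.46 and that of Acacb 0.51, while against livers 2, 4 and 5 they were 0.89 and 0.93. Srebf1 was at 0.47 against livers 1 and 3 and at 0.53 against livers 2, 4 and 5. Thus these 3 genes stood above 0 against both subsets, and the other 7 had opposite signs. Scd1 (0.80), Me1 (0.72), Acly (0.20), Elovl6 (0.18) and Acaca (0.069) lay above 0 against livers 1 and 3, and Fasn (−0.13) below. Against livers 2, 4 and 5, Scd1 (−0.0076), Me1 (−0.22), Acly (−0.095), Elovl6 (−0.29) and Acaca (−0.15) lay below 0, and Fasn (0.03) above. Both subsets were set against the same 3 het-labelled livers, and the difference between the subsets was not tested.

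The median of the 10 genes also rested on single livers. It was 0.0165 without het-labelled liver 3 and 0.038 without wild-type liver 3, against 0.46 without het-labelled liver 2 and 0.45 without wild-type liver 5. Without het-labelled liver 1 or without het-labelled liver 3, 0 of the 10 had an unadjusted p under 0.05. Without het-labelled liver 2, all 10 genes lay above 0, and 3 of them, Srebf1 (0.83), Mlxipl (0.96) and Acacb (1.15), were higher at an unadjusted p under 0.05, against 13.4% of all genes higher and 11.1% lower. In that comparison 0 of the 10 and 0 of 14746 genes (0%) passed adjustment.

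Genes around the pathway were counted in 5 lists, in which edgeR and DESeq2 called 0 genes. Counted before adjustment at p under 0.05, upstream regulators of SREBP1 and ChREBP had 4 of 22 genes higher and 0 lower, against 10.3% and 5.43% of all genes tested. Their median log2 fold change was 0.22, but 0.025 with library size alone and 0.063 against wild-type livers 1 and 3. Scap, which escorts SREBPs to the Golgi, had 84.6 ± 22.4 CPM in het-labelled and 53.3 ± 15.5 CPM in wild-type livers (SD, n = 3 and n = 5; log2 fold change 0.67). Rxra, a nuclear receptor partner of LXR, was at 0.70, the E-box factor gene Usf2 at 0.42 and the thyroid hormone receptor gene Thrb at 0.46. In Usf2 every het-labelled liver lay above every wild-type one, and in Mbtps2 and Sp1 every one lay below (log2 fold change −0.38 and −0.35), against 7.54% and 2.32% of all genes.

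ChREBP's partner Mlx and known ChREBP targets had 6 of 13 genes higher and 0 lower on the same count, against 10.3% and 5.43% of all genes, with a median of 0.51. Pklr, the liver pyruvate kinase gene and a classical target, had 425, 257 and 333 CPM in het-labelled livers 1, 2 and 3, against 156, 82.0, 80.2, 282 and 208 CPM in wild-type livers 1 to 5. Its het-labelled liver 2 lay below wild-type liver 4, and the groups differed by 1.06 on the log2 scale (SE 0.42, edgeR adjusted p = 0.277). The glucose transporter gene Slc2a2 was at 0.45, the glycerol-phosphate dehydrogenase gene Gpd1 at 0.68 and the fructose pathway gene Tkfc at 0.60, while Txnip and Arrdc4, also targets, were at −0.16 and −0.07. On the hepatocyte scale 10 of its 13 genes had a narrower range over the livers.

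Genes that supply carbon and NADPH had 4 of 14 genes higher and 0 lower, against the same 10.3% and 5.43%, with a median of 0.33. The citrate synthase gene Cs (0.54), the transaldolase gene Taldo1 (0.56), the pyruvate carboxylase gene Pcx (0.67) and the mitochondrial citrate carrier gene Slc25a1 (0.46) had the smallest p. Other SREBP1 targets and chain-modifying genes had 3 of 13 tested higher and 0 lower, against the same shares, with a median of 0.29. These 3 were the acyltransferase gene Agpat2 (0.88), the acetoacetyl-CoA synthetase gene Aacs (1.07) and the lipin gene Lpin1 (0.72), and Elovl1 followed at 0.27. Brakes on lipogenesis, most of them subunits of AMP-activated kinase, had 1 of 11 higher and 0 lower, which is close to the 10.3% and 5.43% of all genes. Their median was 0.14, but −0.0035 without wild-type liver 3 and 0.026 without het-labelled liver 3. The gene with the smallest p was Trib1, which encodes a pseudokinase known to lower hepatic lipogenesis, with 86.2, 53.5 and 75.8 CPM in het-labelled livers 1, 2 and 3, against 46.1, 31.9, 42.5, 47.1 and 39.2 CPM in wild-type livers 1 to 5. All het-labelled livers were above all wild-type livers for Trib1 (log2 fold change 0.80, SE 0.19, edgeR adjusted p = 0.259). The kinase subunit genes Prkag2 (0.44) and Prkag1 (0.19) and Stk11 (0.30), the gene of the upstream kinase LKB1, had the next smallest p. In Prkag1 every het-labelled liver also lay above every wild-type one, and in Prkaa1, a catalytic subunit of the kinase, every one lay below (log2 fold change −0.16), against 7.54% and 2.32% of all genes.

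On the hepatocyte scale the medians of all 5 lists lay at or below 0, where the median of all genes was −0.46. The median was −0.0008 for ChREBP partner and targets, −0.25 for upstream regulators, −0.14 for carbon and NADPH supply, −0.17 for other SREBP1 targets and −0.36 for brakes. A narrower range over the livers was seen in 11 of 22 upstream regulators, 8 of 14 supply genes, 7 of 12 other SREBP1 targets with counts in all livers and 5 of 11 brakes, against 27.4% of all genes. Hepatocyte markers, with 7 of 20 higher on the same count, moved with these lists, and their part in them was not tested.

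**Figure D5:**
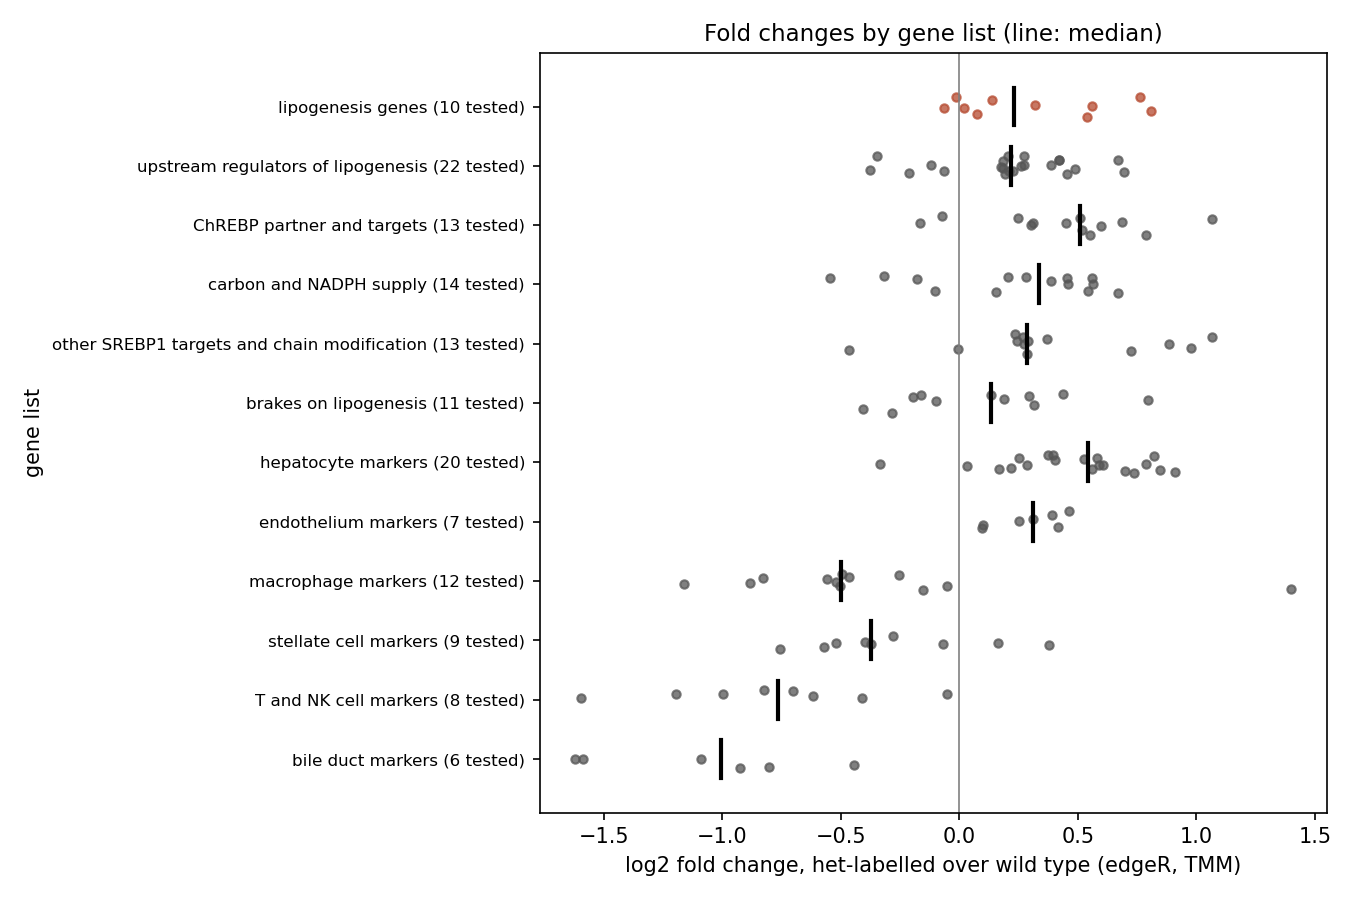
Log2 fold change, het-labelled over wild type (horizontal), of each tested gene (points) in the lipogenesis set, 5 surrounding pathway lists and 6 lists of cell type markers, with the list's median as a black line. The lipogenesis genes have a median of 0.23, ChREBP partner and targets 0.51, hepatocyte markers 0.54 and bile duct markers −1.01.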

How the data were processed

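Liver RNA of 3 het-labelled and 5 wild-type mice was measured. Per the labels, RNA was extracted with a miniprep kit, treated with DNase and made into libraries with the KAPA mRNA HyperPrep kit. The tools named are STAR, HTSeq and bcl2fastq 2.18.0.12 with build mm10, per the submitters' processing notes. Strand use, counting mode, annotation and other versions are not given in the sources, so overlapping and antisense genes cannot be separated. The authors deposited raw counts per gene, RPKM values and exon lengths. Each deposited RPKM value equals the count per exon length over 1 constant per library, which is 0.888 to 1.25 times the count total.

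The 10 genes and the lists were chosen with earlier results of these data known. Groups come from the genotype label. Replicate numbers follow accession order and pair nothing. Litters and batches are not named in the labels. The p-values therefore reflect only how these 8 samples vary. Replicates differed beyond counting noise (chi-square per degree of freedom at least 36.0 in het-labelled and 22.9 in wild-type pairs).

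The edgeR filter filterByExpr (minimum count 10, minimum total 15) left 14438 genes, which were scaled by TMM. Their test was edgeR's quasi-likelihood test (robust, two-sided) with Benjamini-Hochberg adjustment over all of them. Scores are means of centred log2 CPM (prior count 2), compared by exact permutation over 56 assignments. Genes named are the 10, Midn, Rpph1, up to 4 tested genes of each pathway list with the smallest edgeR p, and the 5 most like the set's score. Also named, after their values were seen, are Scd2, Scd3, Txnip, Arrdc4, Mbtps2, Sp1, Prkaa1, Apoh, Ttr, Timd4, Clec4f, Vsig4 and the adipocyte markers. Promoter windows and gene positions are RefSeq's for GRCm38.p6, the same assembly as mm10. Alternatives were other scalings, DESeq2, limma-voom, other filters, limma on log2 of RPKM plus 0.1 or plus 1, the hepatocyte score as a covariate, wild-type subsets, and each library left out. On simulated data (14298 genes) edgeR called 2 of 50 genes changed 1.5-fold, 12 of 50 changed 2-fold, 33 of 50 changed 3-fold and 46 of 50 changed 4-fold, with 3 false calls among 14098. Versions were DESeq2 1.42.0, edgeR 4.0.16 and limma 3.58.1 in R 4.3.3, and matplotlib 3.10.9 in Python 3.11.15.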

Additional observations from a re-analysis of the deposited data

How the results depend on the processing

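In all 21 fits, 0 of the 10 genes passed adjustment. Over all genes edgeR called 0, DESeq2 called 166, edgeR called 21 against wild-type livers 1 and 3 alone and 2632 against wild-type livers 2, 4 and 5 alone. At an unadjusted p under 0.05, 1487 genes were higher and 784 lower in the edgeR test with TMM, 1148 and 973 with RLE scaling, 427 and 1198 with library size alone (median of all genes −0.18), 1333 and 1373 in DESeq2, and 1090 and 1001 on RPKM with a pseudocount of 0.1. Directions changed in at least 1 setting for each of the 10 genes. Fasn was −0.022 in DESeq2 and −0.030 with RLE scaling. With library size alone Me1 was −0.001, Fasn −0.18 and Acly −0.11, while Srebf1 was 0.34, Mlxipl 0.535 and Acacb 0.57. On that scale het-labelled livers 1 and 3 did not both lie above wild-type liver 1 for Srebf1, Mlxipl or Acacb. In the authors' RPKM values they did for each of these genes. With no filter Acaca was 0.0002. With hepatocyte-marker scaling Acly was −0.45, Fasn −0.45, Me1 −0.36 and Scd1 −0.22. With the hepatocyte score as a covariate Srebf1 was −0.32, Mlxipl −0.036, Acly −0.45, Acacb −0.59, Fasn −0.57, Me1 −0.057 and Scd1 −0.44. Its adjusted p was 1 for each of the 10, and the score itself is higher in het-labelled livers 1 and 3. Against wild-type livers 1 and 3 Acaca was 0.069, Fasn −0.13 and Elovl6 0.18. Against wild-type livers 2, 4 and 5 Acly was −0.095, Me1 −0.22, Scd1 −0.0076 and Thrsp −0.10. Leaving out each library in turn gave 0.29 to 0.83 for Srebf1, 0.58 to 0.96 for Mlxipl, 0.55 to 1.15 for Acacb and 0.20 to 1.115 for Thrsp, which kept their sign. It gave −0.13 to 0.30 for Acly, −0.16 to 0.068 for Acaca, −0.29 to 0.19 for Fasn, −0.077 to 0.40 for Me1, −0.26 to 0.078 for Elovl6 and −0.037 to 0.63 for Scd1, which changed sign. The difference in hepatocyte score was 0.29 with library size alone and 0.36 to 0.65 with a library left out. The cause of these changes was not tested. No paired analysis was possible because replicate numbers were given in accession order and pair no livers. With 3 het-labelled livers, changes under 2-fold were seldom called on simulated data.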

Other observations

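Scd3, a close relative of Scd1, had 22.2 CPM in het-labelled liver 2 and 18.5 CPM in wild-type liver 5, and under 1 CPM in each of the other livers. Scd1 had 18859 and 40117 CPM in these livers, against 50427 CPM in het-labelled liver 3, where Scd3 had 0.715 CPM. The gene Scd3 was chosen after its values were seen. How any reads shared with Scd1 were assigned is not given, and their part in its level was not tested.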
